A study of Mus musculus with 12 samples.

Results

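The genes described here are 49 components of TGF-β and bone morphogenetic protein (BMP) signaling, chosen by name and by what they encode, out of 55901 genes in the expression table: ligands, latency proteins, secreted antagonists, receptors, co-receptors, Smads, nuclear corepressors, ubiquitin ligases, membrane feedback inhibitors, adaptors and Id genes. All 49 were found in the table. They were measured by poly(A) RNA-seq in primary cortical neurons of newborn C57BL/6J mice that carried no stated genetic change. All cultures received arabinosylcytosine, an agent that limits dividing glia. The 3 groups, of 4 libraries each, were Control, Trauma (neurons injured mechanically by scratching, harvested after 24 h) and Tra_TGF (scratched neurons kept for 24 h in TGF-β1, at 10 ng/mL). The growth factor was not given to unscratched neurons in these libraries, so that each comparison with Tra_TGF concerns injured cells. The labels do not say whether the 4 libraries of a group came from separate litters or dishes, so p-values measure the spread between libraries, which may be technical.

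TGF-β family ligands are secreted dimers. TGF-β itself leaves the cell bound in a latent complex and must be released before it acts. The free ligand joins type II and type I receptor kinases, the type I receptor phosphorylates Smads, and these enter the nucleus with Smad4. TGF-β and activin receptors use Smad2 and Smad3, whereas BMP receptors use Smad1, Smad5 and Smad9. Several targets of the pathway are its own inhibitors, such as Smad7, Skil and Pmepa1, and the Id genes are classic targets of the BMP branch.

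Reads assigned to genes numbered 15052486 to 17381671 in each library, and values are given as FPKM, which corrects for gene length. Genes with a mean of at least 0.5 FPKM over the 12 libraries were tested with limma on log2(FPKM + 0.1), and a gene was called at an adjusted p of at most 0.05 over all 15016 genes tested. The fold changes are on that scale and understate the change of low genes. Control replicate 1 stood apart: it lay at 58.9 on the second principal component against at most 9.02 for the other libraries, and 2.97% of its reads were mitochondrial against 2.12% to 2.36% in the other Control libraries. The mitochondrial share also differed between the treated groups, at 2.17% to 2.30% in the Trauma libraries and 2.69% to 3.23% in the Tra_TGF libraries, and on the first principal component Control replicate 1 lay at −13.0, nearer to Tra_TGF (−31.8 to −16.6) than to the other Control libraries (25.1 to 30.0). The part of this share in the comparisons with Tra_TGF was not tested. The neuron markers dominated every library, with a summed level of 1417 to 1706 FPKM over 10 genes. The astrocyte list of 9 genes summed to between 212.7 and 332.5 FPKM. In bulk RNA, a change in the share of a cell type and a change of RNA per cell cannot be told apart.

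Of the receptors for the added ligand, Tgfbr1 ranked 27 and Tgfbr2 ranked 39 among the 49 members by mean Control level. In Control neurons 1 member exceeded 100 FPKM, 8 lay between 10 and 100, 28 between 1 and 10, and 12 below 1. Id2 led at 108 ± 7.89 FPKM (SD, n = 4), followed by the corepressor Ski at 55.7 ± 2.29, the activin type I receptor Acvr1b at 46.1 ± 1.92, the activin type II receptor Acvr2a at 24.0 ± 1.66 and Smad4 at 17.8 ± 1.23. Each of these 5 was higher in every Control library than the next gene in the order was in any. Below Smad4 most neighbours overlapped. Tgfbr1, the TGF-β type I receptor, was at 1.97 ± 0.193 FPKM in Control, 2.38 ± 0.378 in Trauma and 2.46 ± 0.312 in Tra_TGF. Tgfbr2, the type II receptor that binds TGF-β, was at 0.574 ± 0.0420, 0.827 ± 0.159 and 0.648 ± 0.0890 FPKM. Of the 3 TGF-β ligand genes, Tgfb3 and Tgfb2 lay between 1.10 and 2.64 FPKM in all libraries. Tgfb1 lay between 0.147 and 0.435 FPKM, from 12 to 39 reads per library.

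Of the 49 genes 40 passed the filter and were tested, 17 were called in at least 1 of the 3 comparisons and 23 in none. The 9 genes below the filter were Tgfb1, Bmp4, Bmp7, Ltbp1, Acvrl1, the co-receptors Tgfbr3 and Eng, Smad6 and Tgif1. The tested members had a median gene length of 5552 bases against 3865 over all tested genes, and a median transcript GC content of 50.1% against 49.6%. The 3 comparisons share libraries and are given side by side rather than as independent evidence. The members were chosen with earlier results of these data known, so their shares beside the background are descriptions and not tests.

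The comparison of Trauma with Control asked what mechanical injury alone did to the pathway. Id3 and Skil rose, together with the BMP receptor gene Bmpr1b, while Smad2, Smurf2 and Id2 fell. These were 6 of 40 tested members, or 15.0%, against a background of 6.00% of all tested genes, with 3 up (background 3.30%) and 3 down (background 2.70%). The libraries of both groups did not overlap for 12 tested members (30%), against a background of 12.9% of all tested genes. The median log2 fold change was 0.06 over the members and −0.01 over all tested genes. The members called at Trauma concerned 1 receptor gene, 1 receptor-regulated Smad, 1 corepressor, 1 ubiquitin ligase and 2 of the 4 Id genes, while none of the 14 tested ligands, latency proteins, antagonists and adaptors was called by limma (4 had an unadjusted p under 0.05, and voom on recovered reads called 1).

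Id3 (chr4:136143497-136145755, GRCm38) encodes a helix-loop-helix protein without a DNA-binding region, which keeps its partners off DNA. It was at 1.81, 3.09, 2.73 and 2.46 FPKM in the Control libraries and at 5.09, 5.18, 5.59 and 5.65 FPKM in the Trauma libraries. All Trauma values lay above all Control values, and the log2 fold change was 1.08 ± 0.14 (SE; limma, adjusted p = 0.000748). Without Control replicate 1, the lowest of them, the log2 fold change was 0.94 and the call held. The call held under each of the other alternatives as well.

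Id1 had an estimate of the same sign with a wide error. It was at 0.168, 1.27, 0.932 and 0.503 FPKM in Control, with only 3 reads in replicate 1, and at 1.47, 1.88, 2.34 and 2.33 FPKM in Trauma. The groups did not overlap, yet the log2 fold change of 1.58 ± 0.47 (95% interval 0.55 to 2.61) missed the threshold (adjusted p = 0.0733). It was called without Control replicate 2 (adjusted p = 0.0411), with voom on recovered reads (log2 fold change 1.72, adjusted p = 0.0215) and with a pseudocount of 1, where the log2 fold change was 0.84 (adjusted p = 0.0483). Id2, which is abundant in cortical neurons, went the other way, from 118.7, 108, 100.0 and 105 FPKM in Control to 97.3, 95.8, 86.3 and 94.6 FPKM in Trauma. The groups were separate, and Id2 fell by 0.21 ± 0.05 on the log2 scale (adjusted p = 0.0376). That call was lost when any library other than Control replicate 3 and Trauma replicate 1 was left out, with adjusted p from 0.0519 to 0.1002. It was also lost under 4 of 15 processing alternatives, quantile normalization among them (adjusted p at most 0.103). Id4 was at 5.76 to 7.32 FPKM in Control and 7.39 to 8.53 in Trauma, a log2 fold change of 0.23 ± 0.11 that was not called (adjusted p = 0.281).

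Astrocyte markers differed between the same groups, in which 3.30% of all tested genes were called up and 2.70% down. Of the 9 astrocyte markers 7 rose in Trauma, among them Gfap, the intermediate filament of astrocytes, by 0.86 on the log2 scale (adjusted p = 0.000336) and Aqp4, the water channel of their end feet, by 0.62 (adjusted p = 0.000433). The summed level of the list rose from 212.7–241.1 FPKM in Control to 270.4–332.5 in Trauma. Microglia markers summed to 15.5–19.0 and 23.7–31.5 FPKM, with 2 of 4 tested genes called up, and oligodendrocyte lineage markers to 46.3–49.1 and 57.5–64.7 FPKM, with 2 of 5 called up. Neuron markers had 1 of 10 called up and 3 down. The part of these cells in the Id3 result was not tested. Endothelial markers were close to 0, at a sum of at most 0.640 FPKM over 7 genes in any library and with Emcn at 0 in all Control and Trauma libraries, and fibroblast and mural markers at 2.46 to 4.37 FPKM over 7 genes. Neither of the 2 tested genes of the last list was called by limma in any comparison, although 2 had an unadjusted p under 0.05 and were called by voom in Tra_TGF against Control.

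**Figure D1:**
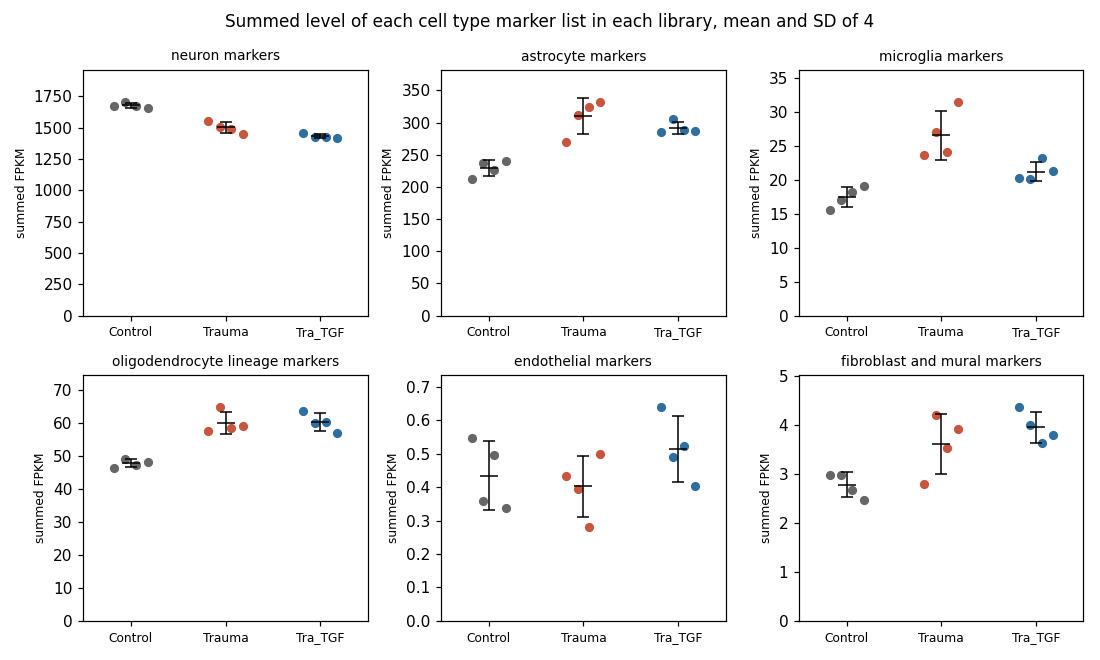
Summed FPKM of 6 cell type marker lists in each library, by group, with the mean and SD of 4. The astrocyte, microglia and oligodendrocyte lineage sums of all Trauma libraries lie above those of all Control libraries, the neuron sum lies below, and the endothelial sum is at most 0.640 FPKM.

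Skil encodes SnoN, a corepressor that binds Smads in the nucleus and is itself a target of the pathway (chr3:31095058-31122577). It was at 7.45, 7.78, 7.11 and 6.83 FPKM in Control and at 9.29, 9.13, 9.23 and 8.34 FPKM in Trauma. The groups were separate, and the log2 fold change was 0.30 ± 0.06 (adjusted p = 0.0109), called under every alternative. The related Ski stayed at 52.2 to 58.3 FPKM in these libraries and was not called (log2 fold change −0.05, 95% interval −0.14 to 0.03).

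Smad2 and Smad3, the mediators of the TGF-β and activin branch, had estimates of opposite sign. Smad2 was at 8.05, 6.83, 7.53 and 7.56 FPKM in Control and at 6.29, 6.16, 5.50 and 6.07 FPKM in Trauma. All Trauma libraries were below all Control libraries, and Smad2 fell by 0.31 ± 0.07 on the log2 scale (adjusted p = 0.0215). The call was lost without Control replicate 3 or 4 or Trauma replicate 3 or 4, with adjusted p from 0.0519 to 0.0655. It was also lost with the replicate block (adjusted p = 0.0570). Smad3 was at 2.73, 3.17, 3.34 and 2.48 FPKM in Control and at 3.50, 3.79, 3.32 and 4.07 FPKM in Trauma. The groups touched at 1 library each, and the log2 fold change of 0.32 ± 0.09 was not called (adjusted p = 0.0726). It was called without Control replicate 3 (adjusted p = 0.0459) and with voom on recovered reads (adjusted p = 0.0471). Smad4 differed little, at a log2 fold change of −0.06 (95% interval −0.18 to 0.06).

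Smurf2, a ubiquitin ligase that targets Smads and receptors, was at 10.4, 9.59, 10.0 and 9.45 FPKM in Control and at 8.43, 8.70, 8.63 and 8.89 FPKM in Trauma. It fell by 0.19 ± 0.04 on the log2 scale (adjusted p = 0.0279). The call was lost without Control replicate 1 or 3 or any Trauma library (adjusted p from 0.0535 to 0.0732). It was also lost under 3 of 15 processing alternatives, quantile normalization among them (adjusted p at most 0.0706). Bmpr1b, a BMP type I receptor, was at 1.15, 1.38, 1.34 and 1.57 FPKM in Control and at 1.81, 2.01, 1.99 and 2.18 FPKM in Trauma. The groups were separate, with a log2 fold change of 0.53 ± 0.11 (adjusted p = 0.0164), or 0.35 with a pseudocount of 1. The call was lost without Trauma replicate 4 (adjusted p = 0.0602) and when only these groups were fitted (adjusted p = 0.0507). Leaving out Trauma replicate 3 or Trauma replicate 4 left 3 members called in this comparison.

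The receptors of TGF-β itself were not called after injury. Tgfbr1 was at 2.17, 1.97, 2.03 and 1.71 FPKM in Control and at 2.91, 2.23, 2.35 and 2.03 FPKM in Trauma, with overlapping groups and a log2 fold change of 0.25 (95% interval −0.02 to 0.53). Tgfbr2 was at 0.556, 0.582, 0.629 and 0.531 FPKM in Control and at 0.720, 0.833, 0.705 and 1.05 FPKM in Trauma, which did not overlap. Its log2 fold change of 0.45 ± 0.19 missed the threshold (adjusted p = 0.208). Among the genes not called here, Acvr2a was called without Tra_TGF replicate 3 (adjusted p = 0.04999), Inhbb without Control replicate 2 (adjusted p = 0.0300), Tgfb3 without Trauma replicate 4 (adjusted p = 0.0262) and Ltbp3 without Control replicate 4 (adjusted p = 0.0487). Acvr2a and Ltbp3 were also called with the GC correction (adjusted p = 0.0292 and 0.0480) and with voom on recovered reads (adjusted p = 0.0232 and 0.0146).

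**Figure D2:**
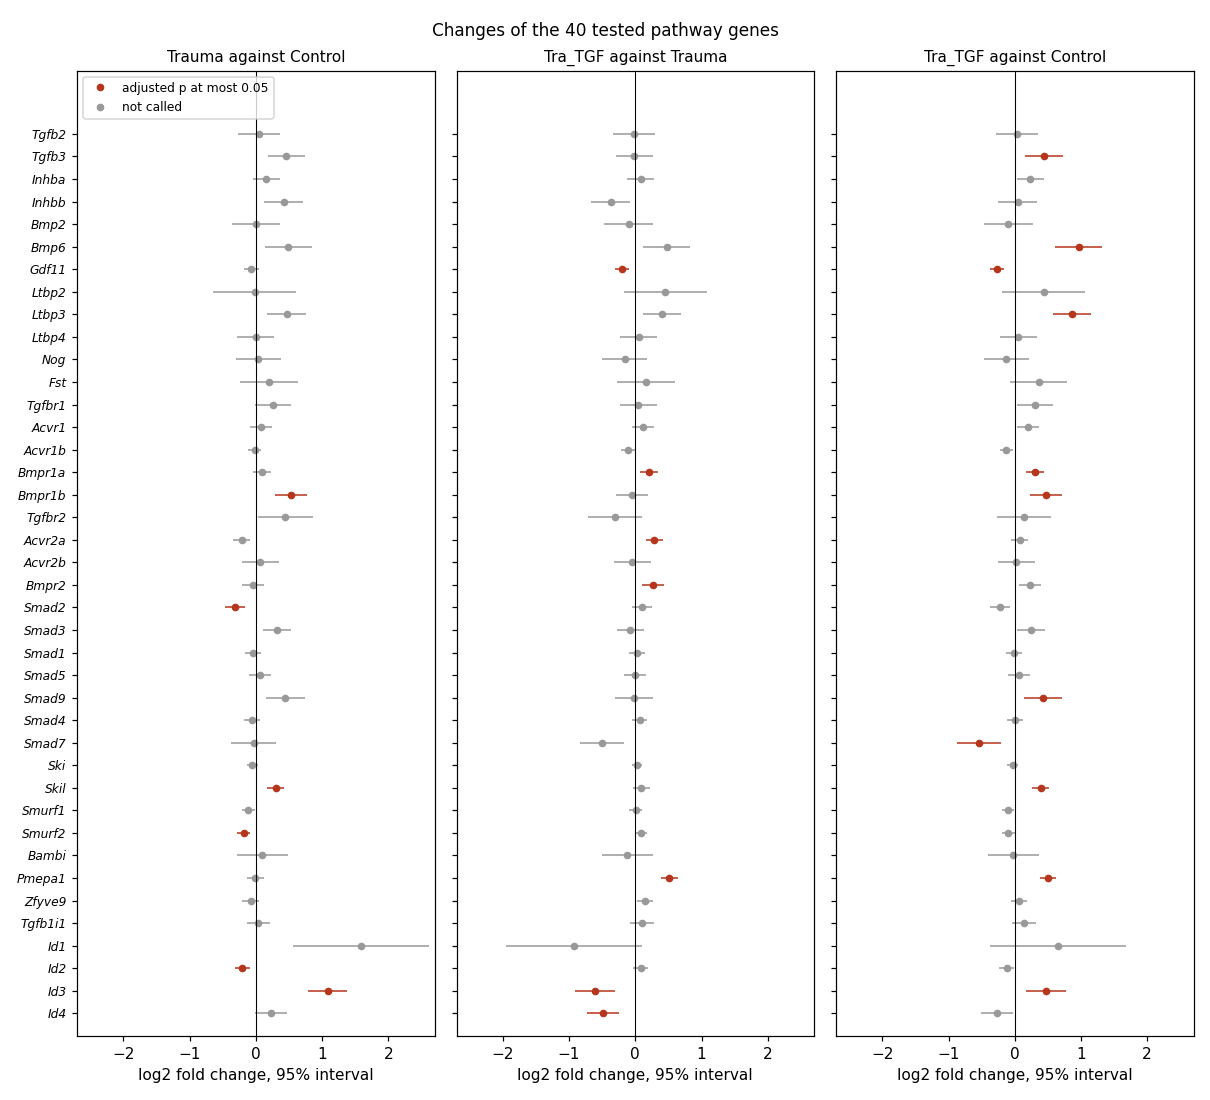
Log2 fold change with its 95% interval for the 40 tested genes in each of the 3 comparisons, with called genes in red. Pmepa1 stands to the right in both comparisons that involve TGF-β1, and Id3 lies at 1.08 in Trauma against Control and at −0.61 in Tra_TGF against Trauma.

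The comparison of Tra_TGF with Trauma asked what TGF-β1 did to injured neurons. The feedback inhibitor Pmepa1 rose by 1.43-fold and the receptor genes Acvr2a, Bmpr2 and Bmpr1a rose by 1.22-, 1.21- and 1.15-fold, while Id3, Id4 and Gdf11 fell. These were 7 of 40 tested members, or 17.5%, against a background of 12.1% of all tested genes. The 4 upward calls (10.0%) stand against a background of 4.40%, and the 3 downward calls (7.50%) against 7.71%. The groups did not overlap for 13 tested members (32.5%), against a background of 22.2%. With quantile normalization the calls over all genes turned from 661 up and 1158 down to 1125 up and 927 down, and those of the members from 4 up and 3 down to 6 up and 4 down. Leaving out Trauma replicate 2 or Tra_TGF replicate 2 left 3 members called, and leaving out Trauma replicate 3, Trauma replicate 4 or Tra_TGF replicate 4 left 4.

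Pmepa1 encodes a membrane protein that binds Smad2 and Smad3 and limits their activation (chr2:173224458-173276533). It was at 14.0, 12.7, 14.6 and 12.8 FPKM in Trauma and at 20.2, 18.9, 19.6 and 18.7 FPKM in Tra_TGF. All treated libraries lay above all untreated libraries, with a log2 fold change of 0.51 ± 0.06 (adjusted p = 0.00157). It was called under every alternative, with log2 fold changes from 0.48 to 0.61. In Control it was at 12.7, 14.2, 13.1 and 14.5 FPKM, overlapping Trauma (log2 fold change −0.01, 95% interval −0.14 to 0.12). Bambi, a receptor-like protein without kinase that also dampens signaling, lay at 0.923 to 1.52 FPKM in both groups and was not called (log2 fold change −0.12, 95% interval −0.50 to 0.27).

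No other feedback inhibitor was called up. Smad7, the inhibitory Smad that docks on type I receptors, was at 3.13, 3.55, 2.56 and 2.54 FPKM in Trauma and at 2.50, 1.83, 2.23 and 1.66 FPKM in Tra_TGF. Every treated library was below every Trauma library, but the log2 fold change of −0.50 ± 0.155 missed the threshold (adjusted p = 0.0543). It was called without Control replicate 1 (adjusted p = 0.0368) and without Tra_TGF replicate 1 (adjusted p = 0.0380), and likewise with a filter at 1 FPKM (adjusted p = 0.0477), quantile normalization (adjusted p = 0.0488) and voom on recovered reads (adjusted p = 0.0226). Skil was at 9.88, 10.2, 8.96 and 9.34 FPKM in Tra_TGF, overlapping the Trauma libraries, with a log2 fold change of 0.09 (95% interval −0.04 to 0.22). Smad6, the inhibitory Smad of the BMP branch, was below the filter at 0.106 to 0.376 FPKM in Trauma and 0.212 to 0.420 in Tra_TGF.

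Of the Id genes, Id3 and Id4 fell and Id1 and Id2 were not called. Id3 went from 5.09, 5.18, 5.59 and 5.65 FPKM in Trauma to 3.96, 3.33, 3.04 and 3.70 in Tra_TGF. The groups were separate, and Id3 fell by 0.61 ± 0.14 on the log2 scale (adjusted p = 0.0180). The call was lost without Trauma replicate 4 or Tra_TGF replicate 2 (adjusted p from 0.05002 to 0.0553). It was also lost when the length or the GC correction was joined with a replicate block (adjusted p at most 0.0635). Id4 was at 8.23, 8.53, 7.39 and 7.51 FPKM in Trauma and at 5.90, 6.29, 4.38 and 5.96 in Tra_TGF. All treated libraries were lower, and Id4 fell by 0.49 ± 0.11 (adjusted p = 0.0178), a call lost without Trauma replicate 2 (adjusted p = 0.0534). Id1 was at 1.47, 1.88, 2.34 and 2.33 FPKM in Trauma and at 1.302, 0.497, 0.799 and 1.78 in Tra_TGF, with overlapping groups and a 95% interval from −1.95 to 0.10. Id2 was at 100.7, 100.2, 97.3 and 97.7 FPKM in Tra_TGF, all above the Trauma libraries, with a log2 fold change of 0.08 (95% interval −0.03 to 0.20).

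Astrocyte markers moved here as well, though not in a common direction: Aqp4 rose by 0.32 on the log2 scale (adjusted p = 0.0181), whereas Aldh1l1, Aldoc and Gja1 fell by 0.50, 0.36 and 0.27 (adjusted p = 0.00403, 0.0158 and 0.0212). The summed astrocyte list was at 270.4–332.5 FPKM in Trauma and 285.7–306.3 in Tra_TGF, and it overlapped. Microglia markers summed to 20.1–23.2 FPKM in Tra_TGF and oligodendrocyte lineage markers to 56.9–63.4, with none of their 4 and 5 tested genes called by limma (2 of each at an unadjusted p under 0.05, none by voom). Neuron markers had 1 of 10 called up and 2 down, where 4.40% of all tested genes were called up and 7.71% down. The part of these cells in the fall of Id3 and Id4 was not tested.

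Among the receptors, the type II genes Acvr2a and Bmpr2 and the type I gene Bmpr1a rose. Acvr2a, which binds activins and several BMPs, was at 21.5, 21.5, 20.6 and 19.1 FPKM in Trauma and at 24.9, 26.4, 23.1 and 26.7 in Tra_TGF. The groups were separate, with a log2 fold change of 0.29 ± 0.06 (adjusted p = 0.0149). The Control libraries, at 22.9 to 26.5 FPKM, lay above the Trauma libraries, though that difference was not called (log2 fold change −0.22, adjusted p = 0.0624). Bmpr2, the BMP type II receptor, was at 13.6, 13.8, 14.4 and 13.1 FPKM in Trauma and at 15.8, 18.5, 15.2 and 16.9 in Tra_TGF. Its log2 fold change was 0.27 ± 0.08 (adjusted p = 0.0381), and the call was lost without any Trauma library or without Tra_TGF replicate 1, 2 or 4 (adjusted p from 0.0507 to 0.110). Bmpr1a, a BMP type I receptor, was at 7.59, 7.60, 7.68 and 8.27 FPKM in Trauma and at 8.99, 9.52, 8.59 and 8.87 in Tra_TGF, separate groups. Its log2 fold change of 0.21 ± 0.06 lay at the threshold (adjusted p = 0.04997). That call was lost when any library but Control replicate 1 was left out (adjusted p from 0.0532 to 0.136). The calls of Bmpr2 and Bmpr1a were also lost under 7 and 9 of 15 processing alternatives.

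These 3 receptor transcripts have low GC contents of 39.9% (Acvr2a), 41.0% (Bmpr2) and 41.3% (Bmpr1a), against a median of 49.6% over the tested genes. With a correction of each library for transcript GC content their log2 fold changes were 0.14, 0.14 and 0.08 (adjusted p = 0.138, 0.169 and 0.385), and none was called. Under the same correction Pmepa1 kept its call at a log2 fold change of 0.61 (adjusted p = 0.000352), Id4 at −0.60 (adjusted p = 0.0140) and Id3 at −0.49 (adjusted p = 0.0360). With a replicate block added to the GC correction, the call of Id3 was lost. The receptors of TGF-β were not called in the main fit or with the GC correction. Tgfbr1 was at 2.70, 2.75, 2.13 and 2.26 FPKM in Tra_TGF, with a log2 fold change of 0.05 (95% interval −0.23 to 0.32). Tgfbr2 was at 0.601, 0.751, 0.551 and 0.687 FPKM, with a log2 fold change of −0.30 (95% interval −0.71 to 0.11).

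Gdf11, a ligand that signals through activin receptors, was at 8.46, 8.76, 8.93 and 8.40 FPKM in Trauma and at 7.27, 7.42, 7.94 and 7.33 in Tra_TGF. The groups were separate, and Gdf11 fell by 0.20 ± 0.05 on the log2 scale (adjusted p = 0.0238). It was lost with the GC correction (log2 fold change −0.15, adjusted p = 0.120) and without Trauma replicate 2 or 3 or Tra_TGF replicate 1, 2 or 4 (adjusted p from 0.0534 to 0.0667). None of the 7 tested Smads was called by limma, with Smad7 alone at an unadjusted p under 0.05 and called by voom. Smad2, Smad3 and Smad4 had log2 fold changes of 0.10, −0.07 and 0.07, with 95% intervals of −0.06 to 0.25, −0.28 to 0.13 and −0.05 to 0.18. Smad2 was at 5.82, 7.04, 6.51 and 6.34 FPKM in Tra_TGF and Smad3 at 3.51, 3.55, 3.43 and 3.39. Smad4 lay at 16.3 to 18.8 FPKM in both groups. Ltbp3 was called without Control replicate 1 (adjusted p = 0.0122) and under 5 of 15 alternatives, GC correction (adjusted p = 0.0212) and voom (adjusted p = 0.00962) among them, and Bmp6 was called by voom (adjusted p = 0.0308).

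Upstream sequences are shown for members called in the main fit of Tra_TGF against Trauma. The members shown have a promoter in the RefSeq table (GRCm38.p6, 34 of 49 members matched), and their 250 bases before the start touch no annotated exon. These were 3 of 6. Capitals mark CAGAC or its reverse complement GTCTG, the short element bound by Smad3 and Smad4, and GGCGCC, a GC-rich element bound by BMP Smads. The motifs do not overlap here. Bases are given 5′ to 3′ on the gene's strand.
Id4, chr13:48260866-48261115, plus strand: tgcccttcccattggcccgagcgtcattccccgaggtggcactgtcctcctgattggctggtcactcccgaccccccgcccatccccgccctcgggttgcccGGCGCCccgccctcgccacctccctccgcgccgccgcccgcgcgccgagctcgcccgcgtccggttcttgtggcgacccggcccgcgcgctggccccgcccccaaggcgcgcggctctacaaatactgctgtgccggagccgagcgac
Acvr2a, chr2:48813859-48814108, plus strand: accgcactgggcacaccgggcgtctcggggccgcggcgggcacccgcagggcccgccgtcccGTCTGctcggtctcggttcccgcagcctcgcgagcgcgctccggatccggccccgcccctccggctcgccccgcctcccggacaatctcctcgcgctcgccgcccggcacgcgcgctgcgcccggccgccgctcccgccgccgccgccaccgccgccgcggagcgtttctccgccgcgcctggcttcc
Gdf11, chr10:128891719-128891968, minus strand: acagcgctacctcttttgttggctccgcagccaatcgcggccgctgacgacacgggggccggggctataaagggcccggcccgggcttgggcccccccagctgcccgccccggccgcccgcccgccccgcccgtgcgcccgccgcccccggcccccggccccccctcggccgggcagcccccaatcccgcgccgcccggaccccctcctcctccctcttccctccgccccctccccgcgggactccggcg
Id4 held GGCGCC once, 148 bases before the start, and no CAGAC. Acvr2a held the CAGAC element once on the reverse strand, 188 bases before the start. Gdf11 held neither. Over all 32851 RefSeq promoters of the same length, 42.2% held CAGAC on either strand and 9.59% held GGCGCC, so a match is a description of these letters and not a site. The windows were GC-rich, at 75.6%, 82.0% and 81.2%, against a median of 52.4% over all promoters.

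**Figure D3:**
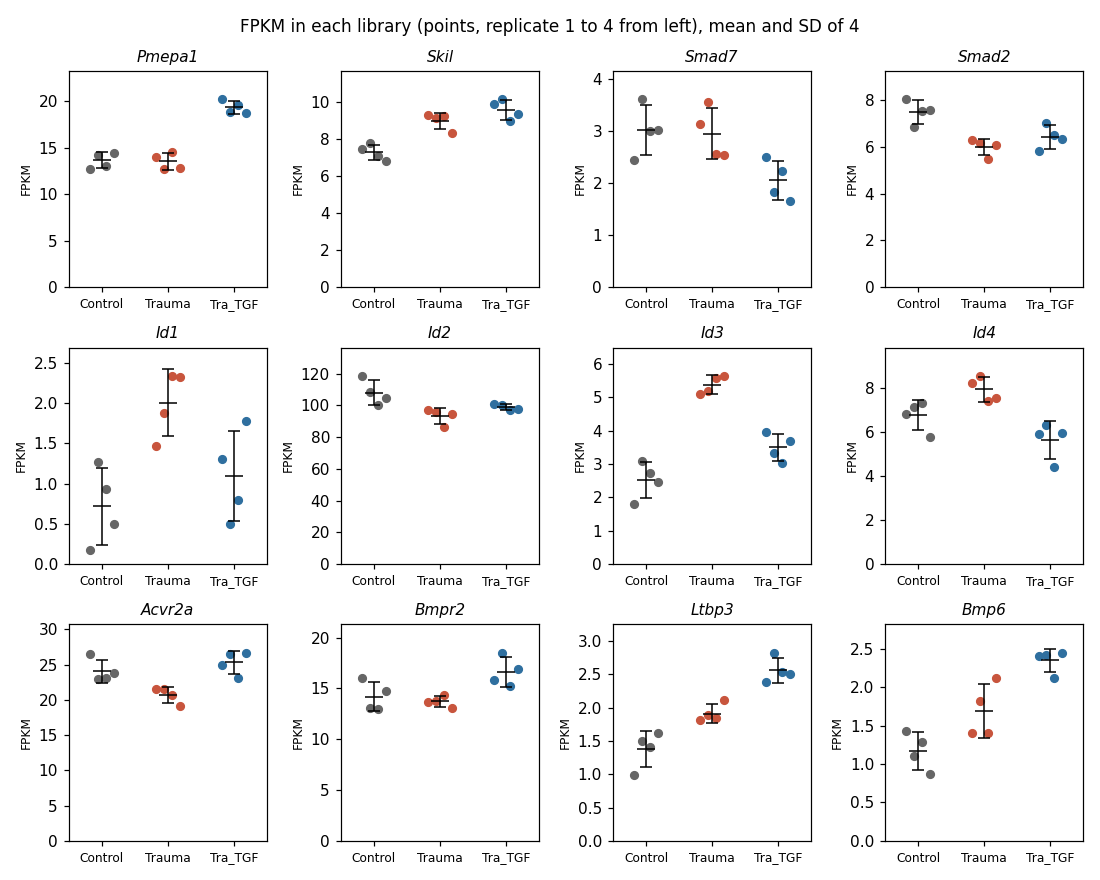
FPKM of 12 pathway genes in each Control, Trauma and Tra_TGF library (points, replicates 1 to 4 from left to right), with the mean and SD of 4. Pmepa1 is at 12.7 to 14.6 FPKM in both groups without TGF-β1 and at 18.7 to 20.2 in Tra_TGF, Id3 is highest in Trauma, and Ltbp3 and Bmp6 are lowest in Control and highest in Tra_TGF by their means.

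The comparison of Tra_TGF with Control took injury and TGF-β1 together. Pmepa1, Skil, Bmp6, Ltbp3, Bmpr1a, Bmpr1b, Id3, Tgfb3 and Smad9 rose, and Gdf11 and Smad7 fell. These were 11 of 40 tested members, or 27.5%, against a background of 16.6%. Of these 9 were up (22.5%, background 6.14%) and 2 down (5.00%, background 10.4%), and 10 members had groups that did not overlap (25.0%, background 18.5%). With quantile normalization the members called were 7 up and 2 down, while over all genes the split turned from 922 up and 1565 down to 1134 up and 918 down. Leaving out Control replicate 3 or Tra_TGF replicate 4 left 7 members called.

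Ltbp3 and Bmp6 had the largest log2 fold changes of the 40 tested members in this comparison. Ltbp3 encodes a protein that binds latent TGF-β in the matrix (chr19:5740904-5758532). It was at 0.989, 1.50, 1.40 and 1.62 FPKM in Control, at 1.81, 1.88, 1.84 and 2.11 in Trauma and at 2.39, 2.83, 2.54 and 2.50 in Tra_TGF. The 3 groups were separate from each other, and the log2 fold change of Tra_TGF against Control was 0.87 ± 0.13 (adjusted p = 0.00162). Neither step was called alone, at log2 fold changes of 0.46 (adjusted p = 0.0654) and 0.41 (adjusted p = 0.0671).

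Bmp6, a BMP ligand, was at 1.43, 1.10, 1.29 and 0.865 FPKM in Control, at 1.40, 1.82, 1.41 and 2.12 in Trauma and at 2.41, 2.42, 2.12 and 2.45 in Tra_TGF. The treated libraries lay above all Control libraries, while the lowest of them was level with the highest Trauma library. The log2 fold change against Control was 0.96 ± 0.16 (adjusted p = 0.00293), or 0.63 with a pseudocount of 1. The calls of Pmepa1, Skil, Bmp6, Ltbp3, Bmpr1a and Gdf11 in this comparison held under every alternative. Pmepa1 had a log2 fold change of 0.50 ± 0.06 (adjusted p = 0.000253) and Skil of 0.39 ± 0.06 (adjusted p = 0.00136), or 0.26 with the GC correction.

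The BMP type I receptor genes Bmpr1a and Bmpr1b were higher in Tra_TGF than in Control. Bmpr1a was at 8.25, 6.95, 6.95 and 7.02 FPKM in Control, with replicate 1 above the others, and its log2 fold change was 0.30 ± 0.06 (adjusted p = 0.00737), or 0.17 with the GC correction. Bmpr1b was at 1.84, 2.14, 1.72 and 1.99 FPKM in Tra_TGF, with a log2 fold change of 0.47 ± 0.11 (adjusted p = 0.0143). It was lost only with the GC correction (adjusted p = 0.0543). Gdf11 was at 9.07, 8.56, 8.86 and 9.73 FPKM in Control and fell by 0.27 ± 0.05 on the log2 scale (adjusted p = 0.00447).

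The other 4 calls were near the threshold. Tgfb3, a TGF-β ligand, was at 1.46, 1.58, 1.43 and 1.82 FPKM in Control and at 2.41, 2.20, 1.92 and 2.16 in Tra_TGF (log2 fold change 0.44 ± 0.13, adjusted p = 0.0363). Its Trauma libraries were at 2.64, 2.25, 2.22 and 1.73 FPKM, the range of the treated libraries lying within them. Its call was lost without Control replicate 1, 2 or 3, Trauma replicate 3 or Tra_TGF replicate 1, 2 or 4 (adjusted p from 0.0506 to 0.0958). It was also lost under 5 of 15 processing alternatives, quantile normalization among them (adjusted p at most 0.0792). Smad9, a BMP-branch Smad, was at 1.22, 1.04, 1.07 and 1.00 FPKM in Control, at 1.87, 1.43, 1.47 and 1.32 in Trauma and at 1.296, 1.64, 1.42 and 1.64 in Tra_TGF. Its log2 fold change was 0.43 ± 0.13 (adjusted p = 0.0447). That call was lost without Control replicate 2, 3 or 4, Trauma replicate 2 or 3 or Tra_TGF replicate 2, 3 or 4 (adjusted p from 0.0590 to 0.119). It was also lost under 10 of 15 processing alternatives, a pseudocount of 1 and quantile normalization among them (adjusted p at most 0.111).

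Smad7 was at 2.44, 3.62, 2.996 and 3.03 FPKM in Control, overlapping the treated libraries at 1 value, and fell by 0.54 ± 0.155 on the log2 scale (adjusted p = 0.0338). The call was lost without Control replicate 2, 3 or 4 or Tra_TGF replicate 2 or 4 (adjusted p from 0.0673 to 0.1004). It was also lost under 4 of 15 processing alternatives, the replicate block among them (adjusted p at most 0.0731). Id3 remained above Control, at a log2 fold change of 0.48 ± 0.14 (adjusted p = 0.0337), with the lowest treated library inside the Control range. That call was lost without Control replicate 3 or 4 or Tra_TGF replicate 1, 2 or 4 (adjusted p from 0.0509 to 0.0859). It was also lost under 5 of 15 processing alternatives, voom on recovered reads and quantile normalization among them (adjusted p at most 0.0872). In the same comparison 4 of 9 astrocyte markers were called up and none down, against 6.14% up and 10.4% down over all tested genes. The summed astrocyte list of every Tra_TGF library, at 285.7 FPKM or more, was above every Control library. Oligodendrocyte lineage markers had 3 of 5 called up and 1 down, with sums of 56.9–63.4 FPKM against 46.3–49.1 in Control. Neuron markers had 4 of 10 called up and 4 down, with sums of 1417–1454 FPKM against 1654–1706 in Control. None of the 4 tested microglia markers was called by limma (1 by voom). The part of these cells in the Id3 result here was not tested. Of the genes not called, Nog, a secreted BMP antagonist, was called down without Control replicate 1 (adjusted p = 0.0120). In that library it was at 5.75 FPKM against 9.61 to 10.8 in the other Control libraries. Likewise Bmpr2 was called without Control replicate 1 or Tra_TGF replicate 3 (adjusted p = 0.0143 and 0.0433). Acvr1b was called without Tra_TGF replicate 1 (adjusted p = 0.0289) and Inhba without Control replicate 4 (adjusted p = 0.0484). Smad2 was called without Control replicate 2, Trauma replicate 3 or Tra_TGF replicate 2 (adjusted p from 0.0400 to 0.0498). Smad2 was also called under 6 of 15 processing alternatives, the GC correction and voom among them (lowest adjusted p = 0.0104). Bmpr2 was called with quantile normalization and with voom (lowest adjusted p = 0.0134). Id2 and Id4 were called down with the GC correction, with or without the replicate block (lowest adjusted p = 0.00593 and 0.0433). Smurf2 was called down under both of these and with the length correction (lowest adjusted p = 0.0182).

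Of the tested members not given in full, none was called in the main fit of any comparison. They were the ligand genes Tgfb2, Inhba, Inhbb and Bmp2, the latency proteins Ltbp2 and Ltbp4, the antagonists Nog and Fst, the receptors Acvr1, Acvr1b and Acvr2b, Smad1 and Smad5, Ski, Smurf1, Bambi, and the adaptors Zfyve9 and Tgfb1i1. The log2 fold changes of these 18 genes ran from −0.11 to 0.42 in Trauma against Control, from −0.37 to 0.46 in Tra_TGF against Trauma and from −0.13 to 0.44 in Tra_TGF against Control, with no adjusted p below 0.0801 (limma). Of the 18, an unadjusted p lay under 0.05 for 2, 3 and 4 genes, and voom called none. By limma with the GC correction, Smurf1 was called in Trauma against Control (adjusted p = 0.0439). With the length correction it was called in Tra_TGF against Control (adjusted p = 0.0326). Ski was called in Tra_TGF against Trauma with quantile normalization and with GC correction and replicate block (lowest adjusted p = 0.0416). Ltbp4 was called with GC correction and replicate block in Tra_TGF against Trauma and against Control (adjusted p = 0.0494 and 0.0329). Inhbb, which encodes an activin subunit, was at 2.14 to 3.19 FPKM in Trauma and at 1.91 to 2.05 in Tra_TGF. Those groups were separate, with a log2 fold change of −0.37 (adjusted p = 0.0912). Of the genes below the filter, Bmp7 was at 0.499 to 0.643 FPKM in Trauma and at 0.287 to 0.343 in Tra_TGF, from 33 to 46 and from 18 to 22 reads. When all genes were tested without the filter, Bmp7 had a log2 fold change of −0.66 between these groups (adjusted p = 0.136) and limma called none of the 9 genes in any comparison, with 1, 1 and 2 genes at an unadjusted p under 0.05.

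A further 143 genes of the pathway were read from lists, of which 96 were tested. These lists were chosen with earlier results of these data known, so their shares beside the background are descriptions and not tests. Known TGF-β target genes were the list with the largest median log2 fold change, 0.21 between Tra_TGF and Trauma. There limma called 7 of 19 tested genes up (36.8%, against 4.40% of all tested genes) and none down. The log2 fold changes of the 19 ran from −0.77 to 1.59, with 13 above 0. Junb and Myc, not called by limma, had an unadjusted p under 0.05, and voom called Junb. Ccn2, a matricellular growth factor and standard TGF-β target, went from 3.53 ± 0.0936 FPKM in Trauma to 10.8 ± 0.221 in Tra_TGF (log2 fold change 1.59, adjusted p = 3.11e-07). Timp3, an inhibitor of matrix proteases, Ccn1, a relative of Ccn2, and Fn1, which encodes fibronectin, had log2 fold changes of 0.79, 0.76 and 0.75 (adjusted p = 0.00148, 0.0196 and 0.00170). In Trauma against Control 9 of the 19 rose (47.4%, against 3.30% of all tested genes) and 1 fell, led by the smooth muscle actin gene Acta2 at 1.63, Timp1 at 1.33, Junb at 1.20 and Ccn1 at 1.19. In Tra_TGF against Control 10 rose (52.6%, against 6.14%) and 2 fell, led by Ccn2 at 2.41 and Acta2 at 2.27.

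Of 20 tested extracellular modulators, 7 had an unadjusted p under 0.05 (limma) between Trauma and Tra_TGF, and voom called 6. By limma 5 rose (25.0%, against 4.40% of all tested genes) and none fell. They included Thbs1, which can release latent TGF-β, at a log2 fold change of 0.58 (adjusted p = 0.00936), and the integrin genes Itgav and Itgb8, whose product binds latent TGF-β, at 0.37 and 0.24 (adjusted p = 0.00884 and 0.0171). Fstl1 rose in this comparison by 0.33 and after injury alone by 0.32. Of 35 tested intracellular regulators 4 rose and 1 fell with TGF-β1 (14.3% called, against 12.1% of all tested genes), among them Zfyve16 at 0.31, Tab2 at 0.27 and Trim33 at 0.25 up and Tab1 at −0.22. In Trauma against Control 1 rose and 1 fell (5.71%, against 6.00%), and in Tra_TGF against Control 6 rose and 1 fell (20.0%, against 16.6%). Counted in either direction, these shares were near the background. By direction, 11.4% were called up (background 4.40%) and 2.86% down (background 7.71%) in Tra_TGF against Trauma. The shares in Tra_TGF against Control were 17.1% up (background 6.14%) and 2.86% down (background 10.4%). For Trauma against Control they were 2.86% up (background 3.30%) and 2.86% down (background 2.70%).

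Of 8 tested BMP target genes, 3 were called between Tra_TGF and Trauma (37.5%, against 12.1% of all tested genes). Hey1 rose with TGF-β1 by 0.34 (adjusted p = 0.0190). Dlx1 and Dlx2, transcription factors of inhibitory neurons, fell by 0.31 and 0.34 (adjusted p = 0.0176 and 0.0380). After injury 1 of the 8 was called, Stat3, which rose by 0.29 (12.5%, against 6.00% of all tested genes). No gene among the 7 tested further ligands or the 7 further receptors was called by limma between Tra_TGF and Trauma (0 and 2 at an unadjusted p under 0.05, 0 and 1 by voom). Cd109, a co-receptor that limits TGF-β signaling, rose after injury from 1.49 ± 0.140 to 3.38 ± 0.3002 FPKM (log2 fold change 1.13, adjusted p = 2.81e-05). Bmp3 rose by 0.39 (adjusted p = 0.0245) and Rgma, a BMP co-receptor, fell by 0.17 (adjusted p = 0.0402). The genes called after injury were 2 of the 7 further receptors (28.6%) and 1 of the 7 further ligands (14.3%), against 6.00% of all tested genes. Against Control, Gdf15 in Tra_TGF fell by 1.12 on the log2 scale (adjusted p = 0.0139). In that comparison 2 of the 7 further ligands were called (28.6%, against 16.6%).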

How the data were processed

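Poly(A) RNA of 12 libraries, 4 per group by their titles, was analysed from a table of FPKM. The methods text speaks of 6 samples, whereas the labels and the table hold 12 libraries; how these relate is not stated, so n = 4 counts libraries. Per the methods, the authors aligned paired-end reads with HISAT2 2.0.5 (mm10 in the labels), counted them per gene, and computed the deposited FPKM from counts and gene length. The deposited FPKM multiplied by the deposited gene length (other) gave whole reads, within 0.05 of a read, for 100.0% of values. The median-of-ratios factor was 1.0062 in every library, so the deposited values were already scaled between libraries.

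FPKM were divided by that factor, 0.1 was added, and log2 values were fitted with limma 3.58.1 (R 4.3.3; trend, 12 libraries, no block, Benjamini-Hochberg adjustment within a comparison). A count model was not used because the unit was FPKM. Alternatives covered pseudocount, filter, scaling, length, GC (14699 genes, 97.9% with a value), voom on recovered reads, a replicate block and leaving out each library. The procedure was tested on simulated data. Members and lists were chosen with earlier results of these data known. Members past the threshold, the TGF-β receptors and mediators are given per library; of each further list, at most the 4 called genes with the largest change and at least 1 FPKM are named.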

Additional observations from a re-analysis of the deposited data

Results flagged for a closer look

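Among 120 groups of 4 libraries (40 tested genes in 3 groups), 8 held a library far from the other 3 by Dixon's criterion; chance flags about 1 group in 20. Tra_TGF replicate 3 was the library in 4 of them: Bmp6 was at 2.12 FPKM against 2.41 to 2.45 in the other Tra_TGF libraries, Acvr1 at 8.34 against 9.41 to 9.44, Smad5 at 5.16 against 6.03 to 6.18 and Smurf1 at 12.9 against 11.7 to 11.9. Trauma replicate 4 had Bmpr1a at 8.27 FPKM against 7.59 to 7.68 and Skil at 8.34 against 9.13 to 9.29. In Control, Bmpr1a was at 8.25 FPKM in replicate 1 against 6.95 to 7.02, and Ltbp2 at 0.602 in replicate 4 against 0.373 to 0.412. The cause was not tested.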

How the results depend on the processing

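The number of members called moved as follows. In Trauma against Control it was 6, 10 with voom on recovered reads, 3 when only these groups were fitted, and 3 to 7 when a library was left out. In Tra_TGF against Trauma it was 7, 4 with the length correction, 3 with length correction and replicate block, 4 with the GC correction, and 3 to 9 when a library was left out. In Tra_TGF against Control it was 11, 7 without the filter, 7 with the replicate block, and 7 to 12 when a library was left out. Of 24 calls 9 held under all 27 alternatives. The cause was not tested.

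The direction of a called member never turned. Smad7 in Trauma against Control ranged from −0.130 to 0.0523 on the log2 scale when a library was left out. Pmepa1 there was at 0.00101 with quantile normalization and from −0.0475 to 0.0193 when a library was left out. Tgfbr1 in Tra_TGF against Trauma was at −0.0816 with the GC correction, with or without the replicate block, and from −0.0215 to 0.145 when a library was left out, and Skil was at −0.0387 with the GC correction, with or without the block.

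Same-numbered libraries correlated at −0.00878 to 0.0762 after removal of group means, so the numbers were taken only as names, and the replicate block gave the counts above.

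Over all genes, calls in Trauma against Control (901) were 575 without the filter, 1366 with the GC correction, 1503 with GC correction and block, 518 in a fit of these groups and 489 to 875 when a library was left out. Calls in Tra_TGF against Trauma (1819) were 987, 813 and 742 in the first 3 of these, 878 with length correction and block, and 651 to 2539 when a library was left out. Calls in Tra_TGF against Control (2487) were 1601 in a fit of these groups and 1489 to 3389 when a library was left out. Genes near 0.5 FPKM rest on few reads, and intervals there are wide.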
